A study of Homo sapiens with 2 samples.

Results

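The p53 pathway genes described here are regulators of the tumour suppressor p53 and genes that p53 switches on, 30 in all, chosen by name for their known role. Of the 30, 27 had a probe set that the platform annotation pairs with that symbol alone, and 25 of the 27 were bright enough to be compared, out of 11787 genes compared on the arrays. BTG2, BBC3 and FDXR were not analysed here, and PERP and SPATA18 lay below the level minimum on all of their probe sets. Gene expression was measured in U251, a human glioma cell line, with 1 Affymetrix HG-U133_Plus_2 array of cells transfected with miR-31 and 1 array of cells transfected with a control. Both cultures were grown in DMEM with serum, and the labels give neither the kind of construct nor the time from transfection to harvest. U251 is known to carry a missense mutation of p53, and both arrays share it.

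The transcription factor p53 is kept low by the ubiquitin ligase MDM2 and its partner MDM4, and is released from them when DNA is damaged or growth is deregulated. It then binds paired copies of a short DNA element near its target genes, whose products halt the cell cycle, repair DNA, adjust metabolism or drive apoptosis. In glioma the pathway is often lost, through p53 itself, through amplified MDM2 or MDM4 or through deletion at 9p21, and several of its target genes also answer to other inducers such as the stress factor ATF4 or interferon.

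The sequences that bear on the comparison are the transfected microRNA and the p53 elements close to the start sites of members. The labels do not say which arm of the miR-31 precursor was expressed; the mature 5′ arm, from RefSeq (GRCh38.p14, chr9:21512158-21512178, minus strand), is shown with the seed, bases 2 to 8, in capitals.
hsa-miR-31-5p: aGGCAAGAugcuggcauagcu
RefSeq promoter windows, 250 bases before to 50 after an annotated start, were found for 25 of the 30 members, 36 windows in all because some genes have several starts. They were searched for the 10-base p53 decamer consensus, which is its own reverse complement, so 1 search covers both strands. The decamer was present in 6 of the 36 windows (16.7%) and in 6.63% of all 35116 windows in the table. Members were chosen for a known role in the p53 pathway, so a higher share may follow from that choice. A pair of decamers with at most 13 bases between them was present in 1 member window and in 10 of all windows. The 5 compared members with a decamer are shown as 30 bases of the sense strand, with each decamer in capitals.
DDB2: gtttGAACAAGCCCtGGGCATGTTTggcgg
FAS: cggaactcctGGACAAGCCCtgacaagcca
SESN1: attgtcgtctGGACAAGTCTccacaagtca
PLK2: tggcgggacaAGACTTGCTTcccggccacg
AEN: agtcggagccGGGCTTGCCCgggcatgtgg
In GRCh38.p14 these lie at chr11:47214975-47215004 on the plus strand for DDB2, chr10:88991299-88991328 on the plus strand for FAS, chr6:109009018-109009047 on the minus strand for SESN1, chr5:58460199-58460228 on the minus strand for PLK2 and chr15:88621296-88621325 on the plus strand for AEN. The pair in DDB2 begins at base 6 after its start, with 1 base between the decamers. The other decamers begin at -122 in FAS, -49 in SESN1, -132 in PLK2 and -34 in AEN. The core of the interferon-stimulated response element, searched on both strands as a pair of GAAA with any 2 bases between them, was present in 1 of the 36 member windows, that of BBC3, and in 3.57% of all windows. A match is a description of the letters and not evidence of binding.

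Values are the deposited intensities, in arbitrary units after scaling of each array. The ratio of a gene is its log2(intensity + 16) in the miR-31 array minus that in the control array, taken on its brightest probe set, and a gene is called higher or lower at 2-fold. With 1 array per group no replicate spread exists and no test or p-value is given. As a gauge of measurement noise only, the SD of a ratio between probe sets of 1 gene was 0.33 over 3142 genes with exactly 2 probe sets, which leaves out differences between cultures. The arrays were alike in scale, with a trimmed mean intensity of 500.07 in the miR-31 array and 500.07 in the control array. The added control RNAs were higher in the miR-31 array: their median ratio was 0.19 for the hybridisation controls and 0.55 for the poly-A controls, so every direction below is relative to the deposited scale. These probe sets do not read mature miR-31, and its host transcript MIR31HG had 495 in the miR-31 array and 245 in the control array. Of 9 glioma line markers, 7 passed the level minimum, while S100B and CHI3L1 lay below it, and their summed intensity was 100649 in the miR-31 array and 107001 in the control array. On the brightest probe set 0 of the 7 reached 2-fold, but they differed by up to as much as the members within 2-fold. GFAP had a ratio of 0.85, FABP7 -0.52 and NES -0.91. The other probe set had 1.03 for GFAP and 0.03 for NES. Immune cell markers were dim, with 2 of 10 past the level minimum, a sum of 376 in the miR-31 array and 340 in the control array, and the defining marker PTPRC at 17.0 and 30.1. Interferon-stimulated genes were higher: of the 16 past the level minimum on both arrays, 16 reached 2-fold, beside 3.07% of the 11270 genes so chosen. Their median ratio was 2.51. A further 5 interferon-stimulated genes passed the minimum on the mean of both arrays but not in the control array, which fixes their direction. Whether that response had a part in the ratios of the p53 pathway genes was not tested.

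The p53 pathway genes as a list lay slightly above the control, with a wide spread and few members past 2-fold. In the miR-31 array, TP53INP1 and GDF15 reached 2-fold upward, which is 2 of 25, against a background of 3.74% of all genes, and AEN alone reached 2-fold downward, 1 of 25, against 1.58%. The other 22 lay within 2-fold. At 1.5-fold, 7 were higher (28%, with 11.7% of all genes) and 2 lower (8%, with 6.73% of all genes). The 7 include PLK3, whose probe sets disagree in sign, and 6 (24%) were higher when its other probe set was used. The ratio was above 0 for 16 members (64%) and for 53.2% of all genes. The member median was 0.29 and that of all genes 0.03, and the interquartile range was 0.86 for members, against 0.54 for all genes. Centring on the hybridisation controls put the member median at 0.10 and that of all genes at -0.16. Centring on the poly-A controls put them at -0.26 and -0.52. In bulk RNA, fewer cells with a transcript and less of it per cell cannot be told apart.

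**Figure D1:**
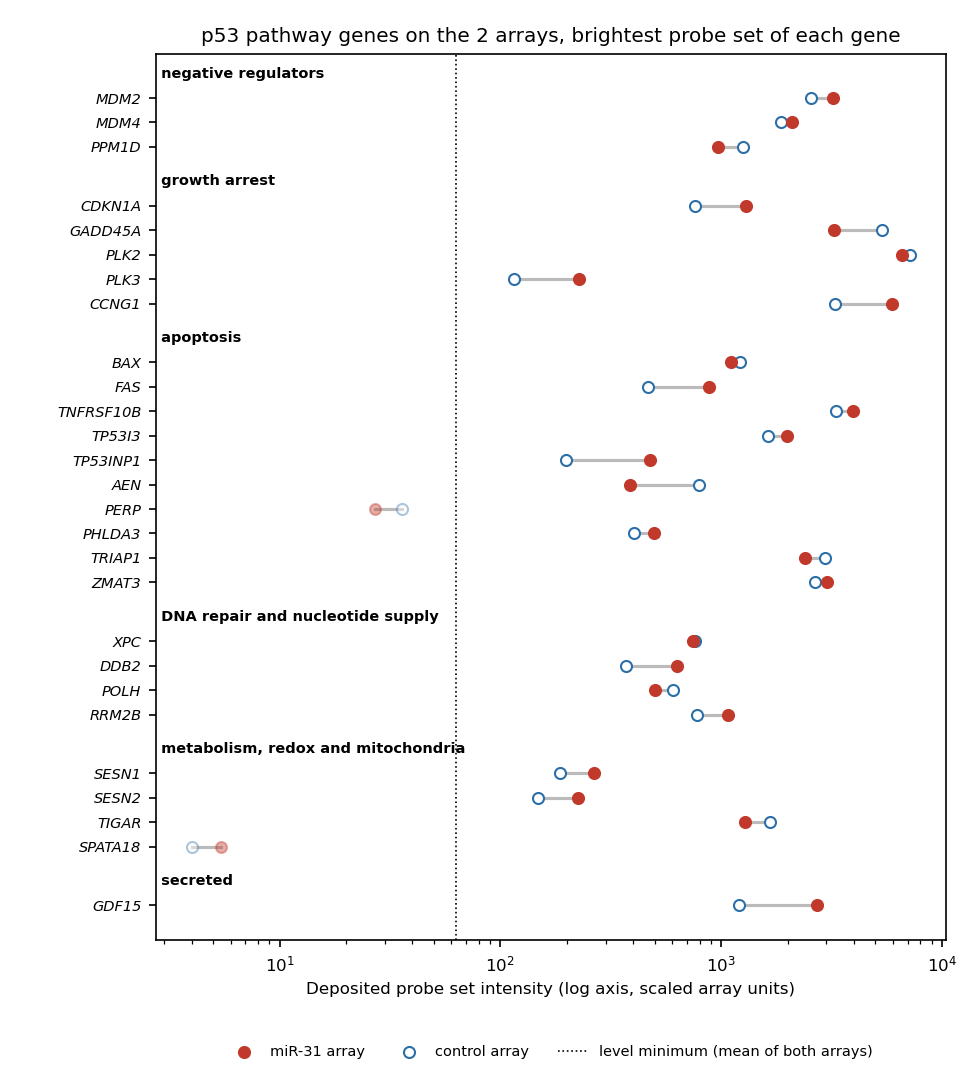
Deposited intensity of the brightest probe set of each of 27 members (log axis, scaled array units), by role; filled points are the miR-31 array, open points the control array, pale points members below the level minimum, and the dotted line the minimum of 62.7. TP53INP1, GDF15, FAS, CCNG1 and PLK3 lie to the right of their control value, and AEN and GADD45A to the left.

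CDKN1A and CCNG1, which act in growth arrest, were at least 1.5-fold higher. CDKN1A, which encodes the cyclin-dependent kinase inhibitor p21, had 1292 in the miR-31 array and 765 in the control array, a ratio of 0.74. CCNG1, whose product cyclin G1 recruits a phosphatase to MDM2, had 5936 in the miR-31 array and 3267 in the control array, a ratio of 0.86. Among bright genes such ratios were uncommon, with genes put in 4 bins by level. In the brightest bin, that of CCNG1, 3.70% of the 2947 genes were at least 1.5-fold higher. In the next bin, that of CDKN1A, the share was 6.72%. CDKN1A and CCNG1 were each read by 1 probe set, so neither has a check on the same array.

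The other arrest genes lay on both sides of 0. GADD45A, a stress sensor that binds p21 and PCNA, had 3242 in the miR-31 array and 5373 in the control array, a ratio of -0.73, and 4.0% of all genes had a lower one. PLK2, a polo-like kinase, had 6610 in the miR-31 array and 7163 in the control array, a ratio of -0.12. PLK3, another polo-like kinase, had 227 in the miR-31 array and 116 in the control array on its brightest probe set, a ratio of 0.89. A second probe set of PLK3 gave -0.42, so its direction depends on the probe set. PLK3 is in the dimmest level bin, where 21.8% of all genes were at least 1.5-fold higher. Of the 5 arrest genes compared, 3 were at least 1.5-fold higher (11.7% of all genes) and 1 lower (6.73%), with a median of 0.74. With PLK3 read on that second probe set, 2 were higher and 1 lower, and the median was -0.12.

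GDF15, a secreted member of the TGF-beta family that p53 and cell stress induce, was 1 of the 2 members past 2-fold upward. It had 2710 in the miR-31 array and 1203 in the control array, a ratio of 1.16. Only 2.42% of all genes had a higher ratio, and in its level bin, the second brightest, 2.0% of genes were at least 2-fold higher. The value comes from a probe set of the _x_at kind, whose probes may also match other transcripts, and the other 2 probe sets of GDF15 lay below the level minimum.

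The genes of apoptosis held the highest and the lowest ratio of all members. TP53INP1, a nuclear protein that promotes p53 phosphorylation and autophagy, had 477 in the miR-31 array and 198 in the control array, a ratio of 1.21 and the highest of the 25. Its other 2 probe sets were below an intensity of 17.0 on both arrays and give no check. AEN, a nuclease that digests DNA in apoptotic cells, had 385 in the miR-31 array and 794 in the control array, a ratio of -1.01 from its only probe set. This is at the edge of the 2-fold threshold, and it was -0.93 with a pseudocount of 64. AEN and FAS both carry a p53 decamer close to the start, as printed above, and lay on opposite sides of 0.

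Of the death receptors, FAS was at least 1.5-fold above the control and TNFRSF10B lay close to it. FAS, the receptor of FAS ligand, had 883 in the miR-31 array and 468 in the control array, a ratio of 0.89. Its 4 probe sets past the level minimum were all above 0, between 0.53 and 1.12, which makes it the member with the most probe sets that all point the same way by over 0.5. All 4 are of the _s_at or _x_at kind, and FAS is left out when such probe sets are dropped. Its other probe set lay below the level minimum, with 26.2 in the miR-31 array and 43.4 in the control array. TNFRSF10B, the TRAIL receptor DR5, had 3956 in the miR-31 array and 3300 in the control array, a ratio of 0.26, with its 3 probe sets between -0.06 and 0.52 and the sign turned under poly-A centring (-0.29).

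The remaining apoptosis genes lay close to the control. BAX, the pore-forming BCL2 family member, had 1114 in the miR-31 array and 1216 in the control array (-0.12), with -0.36 on its other probe set. TP53I3, an oxidoreductase, had 1994 in the miR-31 array and 1630 in the control array (0.29). TRIAP1, a small inhibitor of apoptosis, had 2392 in the miR-31 array and 2950 in the control array (-0.30). None of these exceeded the probe set SD of 0.33 on the brightest probe set. ZMAT3, an RNA-binding zinc finger protein, had 3023 in the miR-31 array and 2653 in the control array, with 5 probe sets between -0.18 and 0.20. PHLDA3, an inhibitor of AKT, had 495 in the miR-31 array and 403 in the control array, but its probe sets disagreed in sign, at 0.29 and -0.35. PERP, a junction protein, had 27.2 in the miR-31 array and 35.8 in the control array on its brightest probe set, which cannot be separated from background. Over the 9 apoptosis genes compared the median was 0.26, with 6 above 0.

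**Figure D2:**
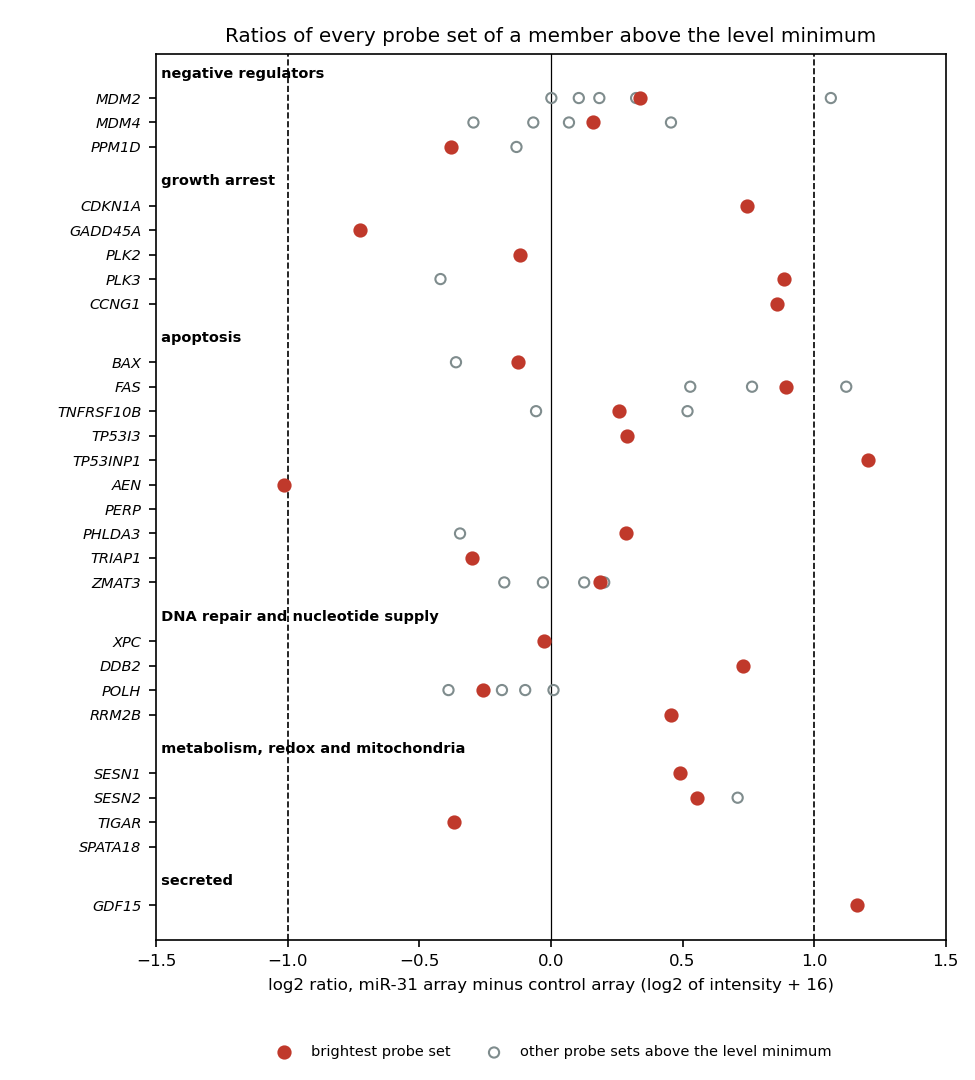
Ratio (miR-31 array minus control array, log2 of intensity + 16) of every probe set of a member above the level minimum, by role; filled points are the brightest probe set, open points the others, and dashed lines mark 2-fold. All 4 points of FAS lie right of 0, while those of PLK3, MDM4, PHLDA3 and ZMAT3 lie on both sides; PERP and SPATA18 have no point.

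The negative regulators of p53 differed little. MDM2, itself a p53 target, had 3229 in the miR-31 array and 2547 in the control array, a ratio of 0.34. All 6 of its probe sets past the level minimum were above 0, but they ran from 0.0018 to 1.06, and the highest was a dim one with 143 in the miR-31 array and 60.1 in the control array. That dim probe set lay below the level minimum in the control array, which fixes its direction. MDM4 had 2094 in the miR-31 array and 1870 in the control array (0.16), with 5 probe sets between -0.29 and 0.46. PPM1D, the phosphatase that resets p53 and its kinases, had 966 in the miR-31 array and 1262 in the control array (-0.38), with -0.13 on its other probe set. Of the 3 regulators, 0 reached 1.5-fold in either direction, beside 11.7% of all genes higher and 6.73% lower.

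Among the repair genes, the damage sensor DDB2 had the highest ratio, above that of RRM2B by less than the probe set SD of 0.33. DDB2, which recognises ultraviolet lesions and whose start holds the decamer pair printed above, had 629 in the miR-31 array and 373 in the control array, a ratio of 0.73 from its only probe set. RRM2B, the p53-inducible ribonucleotide reductase subunit, had 1078 in the miR-31 array and 781 in the control array (0.46). XPC, which recognises helix-distorting damage in the same repair pathway as DDB2, had 745 in the miR-31 array and 759 in the control array, a ratio of -0.03. POLH, the polymerase that copies past ultraviolet lesions, had 504 in the miR-31 array and 606 in the control array (-0.26), with 5 probe sets between -0.39 and 0.01. Of the 4 repair genes, DDB2 alone reached 1.5-fold, beside 11.7% of all genes higher and 6.73% lower by as much. In the level bin of DDB2, the second dimmest, 14.5% of genes were at least 1.5-fold higher.

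Both sestrins, which restrain mTOR signalling and oxidative damage, were above the control by less than 1.5-fold. SESN1 had 267 in the miR-31 array and 185 in the control array, a ratio of 0.49. SESN2 had 225 in the miR-31 array and 148 in the control array, a ratio of 0.55, and 0.71 on its other probe set. Both sit in the dimmest level bin, where the robust SD of ratios over all genes was 0.56, which is larger than the ratios of both brightest probe sets and smaller than that of the other one of SESN2. TIGAR, which lowers glycolytic flux, had 1287 in the miR-31 array and 1664 in the control array (-0.37). SPATA18, a factor of mitochondrial quality control, had 5.43 in the miR-31 array and 4.01 in the control array, near the bottom of the scale.

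**Figure D3:**
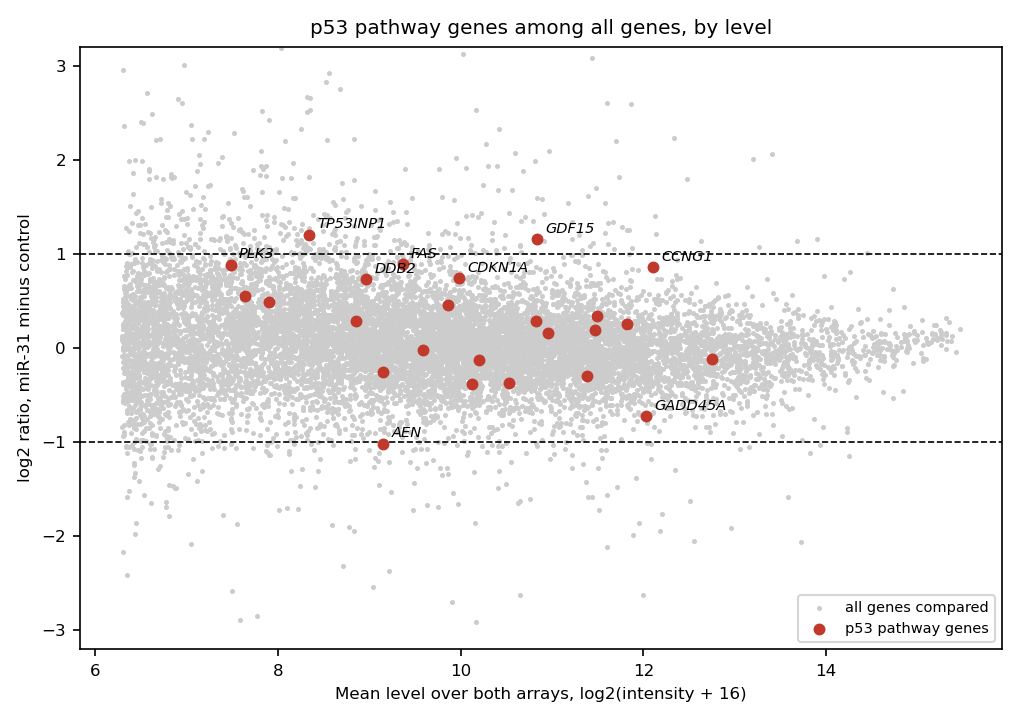
Ratio against mean level over both arrays (log2 of intensity + 16) for all 11787 genes (grey, 12 lie beyond the axis) and the 25 members compared (red), with dashed lines at 2-fold and names for members past 1.5-fold. The grey cloud narrows with level, so that CCNG1 and GDF15 lie nearer to its edge than the dimmer PLK3.

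The spread of all genes depended on level, and this bears on how the members read. The share of all genes at least 2-fold higher was 7.30% in the dimmest bin and 1.26% in the brightest, and the robust SD of ratios was 0.56 and 0.29. Of the 25 members, 3 were in the dimmest bin, 7 in the next, 8 in the next and 7 in the brightest, so the list is not dominated by dim genes. Member medians from the dimmest to the brightest bin were 0.55, 0.29, 0.22 and 0.19, beside 0.15, 0.09, 0.0003 and -0.05 for all genes. Of the 11 members with at least 2 probe sets past the minimum, 5 had all of them on 1 side of 0: MDM2, FAS and SESN2 above, PPM1D and BAX below. The highest probe set of MDM2 passed on the mean of both arrays but not in the control array, which fixes its direction.

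Members with and without a p53 decamer overlapped in ratio. The 5 compared members with a decamer in a promoter window had a median ratio of 0.49 and ran from -1.01 (AEN) to 0.89 (FAS), with DDB2 and SESN1 above 0 and PLK2 just below. The 15 compared members with a window but no decamer had a median of 0.19 and ran from -0.38 (PPM1D) to 1.16 (GDF15). TP53INP1, TNFRSF10B, RRM2B, GADD45A and PHLDA3 were not searched.

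Other target genes of p53, a list of 62 with 51 compared, were centred on the control. Of these, 25 were above 0 and 26 below, and the median was -0.0047. At 2-fold, 4 of the 51 were higher and 0 lower, beside 3.74% and 1.58% of all genes. FUCA1, a lysosomal fucosidase, had 3921 in the miR-31 array and 1340 in the control array, a ratio of 1.54. CPT1C had 1.10, the calcium channel subunit ORAI3 had 1.06 and the adhesion protein NINJ1 had 1.03. At 1.5-fold, 7 of the 51 were higher and 3 lower, beside 11.7% and 6.73% of all genes.

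Genes linked to both p53 and interferon, a list of 11 that includes FAS, had higher ratios. Of these, 10 were above 0 and 5 reached 2-fold upward, beside 3.74% of all genes, and the median was 0.89. TLR3 and XAF1 passed the level minimum on the mean of both arrays but not in the control array; of the 9 genes past it on both arrays, 3 reached 2-fold, beside 3.07% of the 11270 genes so chosen, and the median was 0.76. TRIM22, an antiviral ubiquitin ligase, had 2743 in the miR-31 array and 463 in the control array (2.53). TLR3, a sensor of double-stranded RNA, had 271 in the miR-31 array and 53 in the control array (2.06). CASP1, the inflammatory caspase, had 1.59, and XAF1, an antagonist of apoptosis inhibitors, had 1.46. FAS stood in the middle of this list at 0.89. PMAIP1, the BH3-only protein NOXA, was the 1 gene below 0, with 3157 in the miR-31 array and 4552 in the control array (-0.53).

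**Figure D4:**
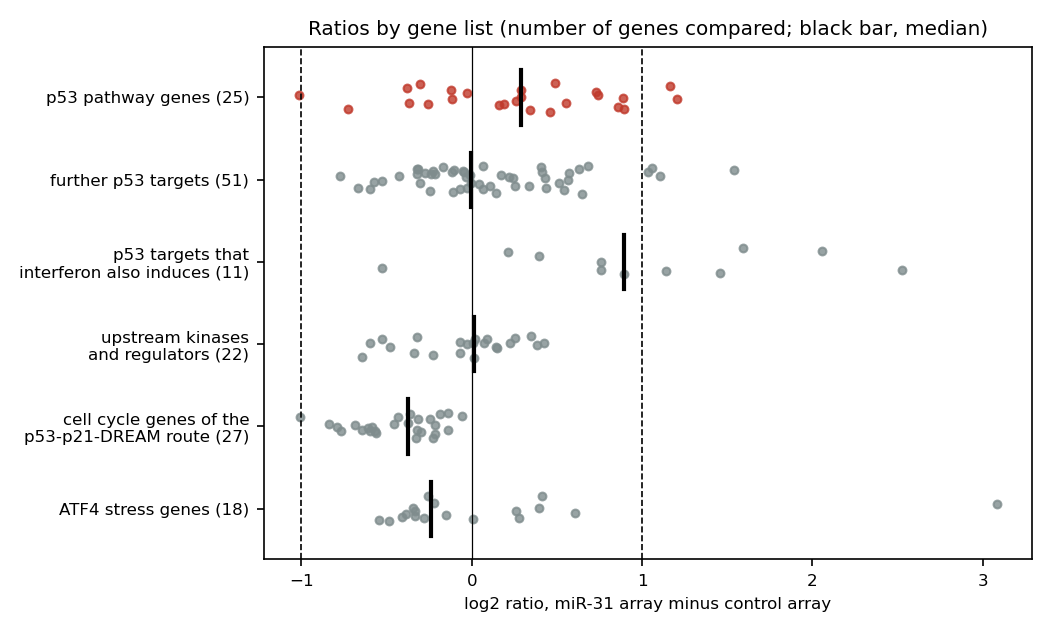
Ratios of the compared genes in the member list (red) and 5 other lists (grey), 1 point per gene with random vertical offset; black bars are medians, dashed lines 2-fold, and numbers in brackets genes compared. The medians are 0.29 for the members, -0.0047 for further targets, 0.89 for genes linked to p53 and interferon, 0.01 for upstream regulators, -0.37 for cell cycle genes and -0.24 for ATF4 stress genes.

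Upstream kinases and regulators of p53 lay around the control, with 12 of 22 compared above 0, 0 past 2-fold and a median of 0.01. Of all genes, 53.2% were above 0, 3.74% at least 2-fold higher and 1.58% at least 2-fold lower. CHEK1, the checkpoint kinase activated by stalled replication, had 1210 in the miR-31 array and 1896 in the control array (-0.64), but its 4 probe sets ran from -0.64 to 0.22. TRIM24, a ubiquitin ligase of p53, had -0.60. USP7, which removes ubiquitin from p53 and MDM2, had -0.53, and DYRK2, a p53 kinase, had -0.48. TRIM24, USP7 and DYRK2 were below 0 on all of their probe sets past the minimum.

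Cell cycle genes that p21 represses through the DREAM complex were below the control on the brightest probe set in 27 of 27 compared, with a median of -0.37. Of all genes, 53.2% were above 0. CHEK1, named above among the upstream regulators, is in this list too. Past the level minimum the list had 50 probe sets, of which 4 were above 0. The highest was that of MCM6, a helicase subunit, with 0.90 against -0.06 on its brightest. Whether CDKN1A had a part in these ratios was not tested. MYBL2, a transcription factor that activates mitotic genes, had 620 in the miR-31 array and 1264 in the control array (-1.01). It was the only one past 2-fold, beside 1.58% of all genes at least 2-fold lower. AURKB, a mitotic kinase, had -0.84, the centromeric histone CENPA had -0.79 and the mitotic kinase PLK1 had -0.77. At 1.5-fold, 9 of the 27 were lower and 0 higher, beside 6.73% and 11.7% of all genes.

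GDF15 and SESN2 are also known as targets of the stress factor ATF4, whose part in their ratios was not tested. Of 18 ATF4 stress genes compared, 7 were above 0 and 11 below, and the median was -0.24. ATF4 itself had 7919 in the miR-31 array and 9219 in the control array (-0.22), and DDIT3, its partner CHOP, had -0.48. ATF5 had -0.55, but its 3 probe sets past the level minimum ran from -1.56 to 0.13. VLDLR, a lipoprotein receptor, had 0.61. DDIT4, an inhibitor of mTOR that p53 also induces, was apart from the rest, with 8096 in the miR-31 array and 940 in the control array (3.08).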

How the data were processed

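The deposited table holds linear intensities of 54675 probe sets on both arrays, made with software that the sources used here do not name. Without the lowest and highest 2% of probe sets the mean was close to the same value on both arrays. Total RNA was extracted with trizol and labelled with biotin, per the labels' protocols. Probe sets were named from the supplied platform annotation only where it gives 1 symbol (41091 probe sets; 1801 had several and 11721 none), and the 62 control probe sets were left out. The identifiers of all 72 probe sets of members matched their RefSeq symbol.

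Probe sets were kept if their mean log2(intensity + 16) was at least the array-wide median (62.7 in intensity), and the brightest kept one represented a gene. Precision is limited by the single array in each group. The calculation was tested on simulated data. The members and lists were chosen with earlier results of these data known. All members are named, and of each other list up to 4 compared genes with the largest absolute ratio; interferon and immune genes are given by counts and sums. ATF4, PMAIP1, MCM6, S100B, CHI3L1 and PTPRC were named after their values were seen. All lists were drawn from general knowledge. Some genes of the pathway are not reported here. Alternatives were other scalings, pseudocounts of 1 and 64, level filters, probe set choices and a 1.5-fold threshold. Tools were statsmodels 0.14.6 (loess, span 0.3), scipy 1.17.1, pandas 2.3.3, numpy 2.4.6, matplotlib 3.10.9 and Python 3.11.15.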

Additional observations from a re-analysis of the deposited data

How the results depend on the processing

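No paired analysis was possible because there is 1 array on each side, and leaving one out leaves no comparison. The 2 members called higher stayed TP53INP1 and GDF15 under median centring, quantile normalization, level trend removal, pseudocounts of 1 and 64, no level filter and the mean of probe sets. The count was 1 when centred on hybridisation controls, with the stricter level filter (21 members), without _s_at and _x_at probe sets (16 members) and with the second brightest probe set (11 members, FAS alone), 0 when centred on poly-A controls and 7 at 1.5-fold. The 1 member called lower, AEN, was joined by GADD45A when centred on poly-A controls and at 1.5-fold (2 each). The count was 0 with a pseudocount of 64, without _s_at and _x_at probe sets and with the second brightest probe set; the last 2 leave AEN out. The member median of 0.29 became 0.10 and -0.26 with the spike-in centrings, which subtract 0.19 and 0.55 from every gene. It was 0.19 with the stricter filter (all genes -0.0082) and 0.17 without _s_at and _x_at probe sets (all genes 0.042). With the second brightest probe set it was 0.069, close to the 0.054 of all genes. It lay between 0.23 and 0.29 under the others. Of 273 single member values under the alternatives, 28 moved by more than the probe set SD. They include all 25 under poly-A centring, whose shift of 0.55 exceeds that SD. The 3 called members kept their sign. Each has 1 probe set past the level minimum and a ratio larger than 0.55, so probe set choices and centrings could not turn it. Of the 25 members, 16 kept 1 sign throughout. Those with 1 probe set past the minimum could not be turned by the probe set choices. The spike-in centrings only subtract, so they could not turn the 9 members below 0 or those with a ratio above 0.55. PLK3 was read on its other probe set, chosen after seeing the data like the limit to genes past the level minimum on both arrays. The 2-fold counts of 2 and 1 could not change, because both of its values, 0.89 and -0.42, lie within 2-fold. The count at least 1.5-fold higher went from 7 to 6, the member median to 0.26 and the arrest median from 0.74 to -0.12. The lists of further targets and of upstream regulators, both with medians near 0, changed sign with the setting.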
